A study of Homo sapiens with 8 samples.

Results

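Transcript levels of the insulin-like growth factor (IGF) binding proteins, the ligand IGF2 and the IGF receptors were taken from mRNA sequencing of SH-SY5Y, a human neuroblastoma line used as a model of sympathetic neurons. The 10 genes (IGFBP1 to IGFBP7, IGF2, IGF1R and IGF2R) were chosen by symbol, with earlier results of this comparison known, out of 52719 genes whose transcript values were summed. One group of 4 libraries (replicates 21 to 24) came from cells that had been differentiated over 7 days in 9-cis retinoic acid at 1 µM, and the other 4 (replicates 17 to 20) from undifferentiated cells. 9-cis retinoic acid activates both classes of retinoid receptor, RAR and RXR. Both groups are the same cell line, and the growth protocol given for all libraries is DMEM/F12 medium with foetal calf serum, which itself carries IGFs and binding proteins. The labels give the undifferentiated cells neither a dose nor a day, so time in culture and retinoid treatment cannot be told apart.

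IGF1 and IGF2 are secreted growth factors that signal through IGF1R, a receptor tyrosine kinase related to the insulin receptor. The high-affinity binding proteins IGFBP1 to IGFBP6 hold most of the IGFs outside the cell, and proteases release the ligand by cutting them. IGF2R, the cation-independent mannose-6-phosphate receptor, has no kinase domain, removes IGF2 from the cell surface and carries enzymes to the lysosome. In neuroblastoma, IGF2 is known as a growth factor that the cells make for themselves.

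Values are in TPM, a share of a library's transcripts corrected for length, so levels of different genes can be set side by side. TPM carries no sequencing depth, so the read depth is unknown and counting error cannot be stated. A library had 16265 to 17370 genes at 1 TPM or more. Lane 7 held undifferentiated replicates 17 and 18, and lane 8 held the other 6 libraries. Within undifferentiated cells, limma called 29 of 17077 genes (0.17%) different between the lanes at a Benjamini-Hochberg adjusted p under 0.05, and 713 had an unadjusted p under 0.05. Differences below are on the log2(TPM+1) scale, differentiated minus undifferentiated, with the SE of the limma fit, a scale that understates differences where TPM is low. The labels do not say whether the 4 libraries of a group are separate cultures, so SEs and p-values measure the spread between libraries, which may be technical.

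Of the 11 sympathetic neuroblast markers, 10 averaged 1 TPM or more, and their summed level was 1620 to 1853 TPM in differentiated libraries and 2380 to 2466 TPM in undifferentiated libraries. Fibroblast markers (7 of 8 at 1 TPM or more) summed to 311 to 357 TPM in differentiated libraries and 226 to 243 TPM in undifferentiated libraries, and Schwann markers (3 of 6, with 2 listed at 0 everywhere) to 14.75 to 18.2 TPM in differentiated libraries and 6.24 to 8.5 TPM in undifferentiated libraries. None of the 5 endothelial markers with a value (of 6 listed), the 6 blood markers or the 5 liver markers averaged 1 TPM. In bulk RNA, more cells of one kind and more RNA per cell cannot be told apart, and the part of these marker shifts in the results below was not tested.

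In differentiated cells the measurable binding protein transcripts were higher and the ligand transcript was lower than in undifferentiated cells. IGFBP6 was 55.8-fold higher and IGFBP3 6.36-fold higher in differentiated cells by ratio of mean TPM, while IGFBP2, IGFBP4 and IGFBP5 were 1.64-fold to 1.85-fold higher. IGF2 was 5.61-fold lower. The receptors moved little: IGF2R was 1.45-fold higher, and IGF1R overlapped between the groups. IGFBP1 and IGFBP7 were at or near 0 throughout. Of the 8 genes that reached a mean of 1 TPM over the 8 libraries, 6 were called higher and 1 lower, beside 33.9% called higher and 17.4% called lower (51.3% in either direction) of all 17077 genes tested. The groups did not overlap for 7 of the 8, with 6 of them higher and 1 lower, beside 49.6% of all tested genes (32.3% higher and 17.3% lower). The median difference of the 8 was 0.73 on the log2 scale, beside 0.10 over all tested genes. Because the genes were chosen with this comparison known, these counts describe the family and no p-value is given for its genes.

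**Figure D1:**
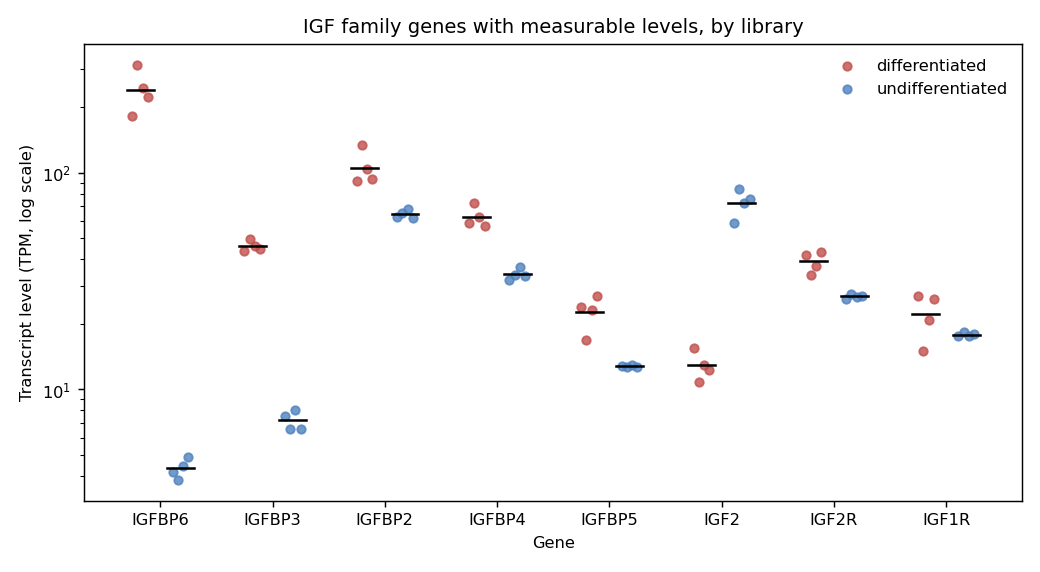
TPM of the 8 IGF family genes with measurable levels, on a log axis, with 1 point per library and a bar at each group's mean (4 differentiated libraries in red, left, and 4 undifferentiated libraries in blue, right, for each gene). The groups are separate for every gene shown except IGF1R, and IGF2 is the gene whose differentiated libraries lie below the undifferentiated ones.

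IGFBP6 (ENSG00000167779, chr12:53097436-53102345, plus strand, GRCh38) encodes the binding protein that prefers IGF2 to IGF1 by a wide margin. Its level was 183, 315, 245 and 223 TPM in differentiated replicates 21, 22, 23 and 24, against 4.18, 3.82, 4.44 and 4.86 TPM in undifferentiated replicates 17, 18, 19 and 20. Every differentiated library was far above every undifferentiated one, and replicate 22 was the highest. The means were 241 ± 55.3 TPM in differentiated cells and 4.33 ± 0.437 TPM in undifferentiated cells (SD, n = 4 each), a log2 difference of 5.48 ± 0.15 (SE). By that difference it ranked 7 of the 17077 tested genes. In the undifferentiated cells it had the lowest level of the 8 measurable family genes, and in the differentiated cells the highest.

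The transcripts behind IGFBP6 also differed, and the end of the first coding exon is printed because another abundant transcript, IGFBP6-204, lacks that exon. IGFBP6-201 carries the whole coding sequence of 720 bases in GENCODE 29, whereas IGFBP6-204 starts inside the first intron, at position 53098924, with 243 coding bases. Its coding sequence begins at position 53100855, past the stretch of the second coding exon printed here, so it lacks the first coding exon and also coding bases of the second. The first coding exon in this gene family encodes the signal peptide and the cysteine-rich amino-terminal part of the IGF-binding site. The last 45 bases of that exon (chr12:53098007-53098051, plus strand, lower case) and the first 45 of the next coding exon (chr12:53100712-53100756, capitals) read, in GENCODE 29 on GRCh38, as follows, with the same junction of IGFBP2 (chr2:216633921-216633965 and chr2:216660557-216660601, plus strand) set beside it:
IGFBP6-201: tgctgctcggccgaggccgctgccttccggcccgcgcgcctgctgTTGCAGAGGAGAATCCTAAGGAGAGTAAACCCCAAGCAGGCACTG
IGFBP2-201: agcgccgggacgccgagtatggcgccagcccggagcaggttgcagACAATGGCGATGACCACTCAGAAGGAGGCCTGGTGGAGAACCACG

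IGFBP6-201 made up 49.9%, 37.0%, 65.05% and 54.45% of the gene's TPM in differentiated replicates 21 to 24, against 8.23%, 4.55%, 18.0% and 24.4% in undifferentiated replicates 17 to 20. The groups did not overlap. IGFBP6-204 held 42.1%, 57.4%, 25.5% and 34.0% in differentiated replicates 21 to 24 and 58.4%, 65.3%, 63.2% and 54.8% in undifferentiated replicates 17 to 20, where the groups overlapped through replicate 22. IGFBP6-201 and IGFBP6-203 have 4 coding exons each, with 720 and 714 coding bases. Together they summed to 125 ± 29.1 TPM in differentiated cells and 0.858 ± 0.403 TPM in undifferentiated cells. Transcripts starting in the first intron averaged 98.9 ± 54.9 TPM in differentiated cells and 2.60 ± 0.166 TPM in undifferentiated cells. Both kinds were higher in every differentiated library. IGFBP6-202, annotated as a target of nonsense-mediated decay, was 7.56% of the gene in differentiated cells and 20.3% in undifferentiated cells. IGFBP6-203 was 1.13% in differentiated cells and 5.49% in undifferentiated cells, without overlap. Transcript shares rest on Salmon's division of reads between overlapping transcripts, and at 4.33 TPM for the whole gene the undifferentiated shares rest on little signal.

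IGFBP3 (ENSG00000146674, chr7:45912245-45921874, minus strand) encodes the main carrier of IGFs in serum. It stood at 43.6, 49.2, 45.7 and 44.6 TPM in differentiated replicates 21 to 24, against 7.57, 6.59, 8.04 and 6.61 TPM in undifferentiated replicates 17 to 20. All 4 differentiated libraries lay close together, well above the undifferentiated ones. The means were 45.8 ± 2.45 TPM in differentiated cells and 7.20 ± 0.722 TPM in undifferentiated cells, a log2 difference of 2.52 ± 0.07 (SE). Replicate 22, which stood apart for other family genes, was only 0.14 above the mean of the other differentiated libraries on the log2 scale.

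One annotated transcript, IGFBP3-203, held most of the gene in both groups, at 87.4% to 95.04% in differentiated libraries and 73.3% to 82.0% in undifferentiated libraries. In GENCODE 29 it lacks 291 bases, or 97 codons, of the first coding exon of IGFBP3-201, and keeps 582 coding bases against 873. The stretch is shown because it starts just after the initiator codon and runs through the cysteine-rich amino-terminal part, so the 2 transcripts would encode different proteins. The capitals mark the bases absent from IGFBP3-203, within chr7:45920841-45921140 (minus strand, GRCh38):
IGFBP3-201: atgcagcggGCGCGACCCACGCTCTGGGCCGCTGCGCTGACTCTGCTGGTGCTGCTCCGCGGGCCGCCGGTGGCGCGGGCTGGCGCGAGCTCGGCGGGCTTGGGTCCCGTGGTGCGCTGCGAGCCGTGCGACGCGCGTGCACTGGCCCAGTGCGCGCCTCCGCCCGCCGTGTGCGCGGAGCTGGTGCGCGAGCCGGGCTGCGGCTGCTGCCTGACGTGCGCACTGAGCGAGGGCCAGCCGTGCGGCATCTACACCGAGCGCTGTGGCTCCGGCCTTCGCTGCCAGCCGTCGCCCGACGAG

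IGFBP3-201, which holds these bases, was at 1.37, 0.677, 2.33 and 1.47 TPM in differentiated replicates 21 to 24, against 0.0783, 0, 0.199 and 0.0699 TPM in undifferentiated replicates 17 to 20. It was a minor part of the gene in every library, between 1.38% and 5.10% in differentiated cells and between 0 and 2.48% in undifferentiated cells. The structures are those of GENCODE 29, matched by identifier, and the release used to make the values may define the same transcripts differently. GC content is a further limit on reads from this region: it was 76.7% in the first coding exon of IGFBP3 and 53.6% in the rest of its coding sequence, and 70.6% to 78.3% in the first coding exons of the other 4 measurable binding proteins. The part of base composition in the transcript shares was not tested. Transcripts IGFBP3-207 and IGFBP3-208, which have no annotated coding sequence, made up 1.21% and 2.55% of the gene in differentiated cells and 6.004% and 8.60% in undifferentiated cells.

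IGFBP2 (ENSG00000115457, chr2:216632828-216664436, plus strand), the most abundant binding protein of the undifferentiated cells, was at 91.45, 134, 104 and 93.3 TPM in differentiated replicates 21 to 24, against 62.4, 65.5, 68.0 and 61.6 TPM in undifferentiated replicates 17 to 20. Replicate 22 was the highest, and the lowest differentiated library was above every undifferentiated one. The log2 difference was 0.69 ± 0.12 (SE). IGFBP2-201, with the whole coding sequence of 975 bases, held 57.7% of the gene in differentiated cells and 52.6% in undifferentiated cells. IGFBP2-204, which starts in the first intron at position 216659618 and keeps 543 coding bases, held 37.97% in differentiated cells and 40.6% in undifferentiated cells. IGFBP2-203 held 3.64% in differentiated cells and 5.32% in undifferentiated cells. The junction printed above is the one IGFBP2-204 leaves out, so this gene, like IGFBP6, had a large annotated fraction without the first coding exon. The shares of IGFBP2-201 were apart by little, with a lowest of 55.65% in differentiated libraries and a highest of 55.55% in undifferentiated libraries.

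IGFBP5 (ENSG00000115461, chr2:216672105-216695525, minus strand), a binding protein that also attaches to extracellular matrix, lies 7.7 kb from IGFBP2 with its 3' end towards it. Its level was 24.0, 17.0, 23.3 and 26.85 TPM in differentiated replicates 21 to 24, against 12.9, 12.7, 12.9 and 12.6 TPM in undifferentiated replicates 17 to 20. The undifferentiated libraries were nearly identical, and replicate 22 was the lowest differentiated library, the reverse of its place for IGFBP2. The log2 difference was 0.77 ± 0.12 (SE), and the IGFBP2 to IGFBP5 ratio was 4.91 ± 2.04 in differentiated cells and 5.04 ± 0.207 in undifferentiated cells, with overlap. IGFBP5-201 held 98.99% of the gene in differentiated cells and 97.8% in undifferentiated cells.

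IGFBP4 (ENSG00000141753, chr17:40443461-40457731, plus strand), an inhibitor of IGF action that is cut by the protease PAPP-A, was at 58.85, 72.2, 62.5 and 57.0 TPM in differentiated replicates 21 to 24, against 31.8, 33.7, 36.7 and 33.55 TPM in undifferentiated replicates 17 to 20. The groups were well apart, with a log2 difference of 0.86 ± 0.08 (SE). It has a single transcript in the table.

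IGFBP1 (ENSG00000146678, chromosome 7), a liver-made binding protein that responds to insulin, was listed at 0 in all 8 libraries for each of its 3 transcripts. Its neighbour 18.6 kb away is IGFBP3. IGFBP7 (ENSG00000163453, chromosome 4), a low-affinity relative secreted by endothelial cells among others, was listed at 0 in 6 libraries and at 0.0445 and 0.0579 TPM in differentiated replicates 22 and 24, all of it from IGFBP7-202. Neither was tested.

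Together the binding protein transcripts summed to 401, 587, 479.9 and 444 TPM in differentiated replicates 21 to 24, against 119, 122, 130.2 and 119 TPM in undifferentiated replicates 17 to 20. Without IGFBP6 the sums were 237 ± 24.9 TPM in differentiated cells and 118 ± 5.27 TPM in undifferentiated cells, so the other binding proteins were 2.002-fold higher as a sum. The make-up turned over as well. IGFBP6 was 50.1 ± 3.32% of the binding protein TPM in differentiated cells and 3.53 ± 0.396% in undifferentiated cells. IGFBP2 was 22.1 ± 0.919% in differentiated cells and 52.5 ± 0.782% in undifferentiated cells, although its own level was higher in the differentiated cells. IGFBP4 was 13.2% in differentiated cells and 27.7% in undifferentiated cells, and IGFBP5 was 4.94% in differentiated cells and 10.4% in undifferentiated cells. IGFBP3 was 9.71% in differentiated cells and 5.87% in undifferentiated cells. None of these 5 shares overlapped between the groups. Shares of the same total depend on each other, so the larger IGFBP6 share lowers those of the others. The levels of IGFBP4 and IGFBP5, like that of IGFBP2, were themselves higher in differentiated cells.

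**Figure D2:**
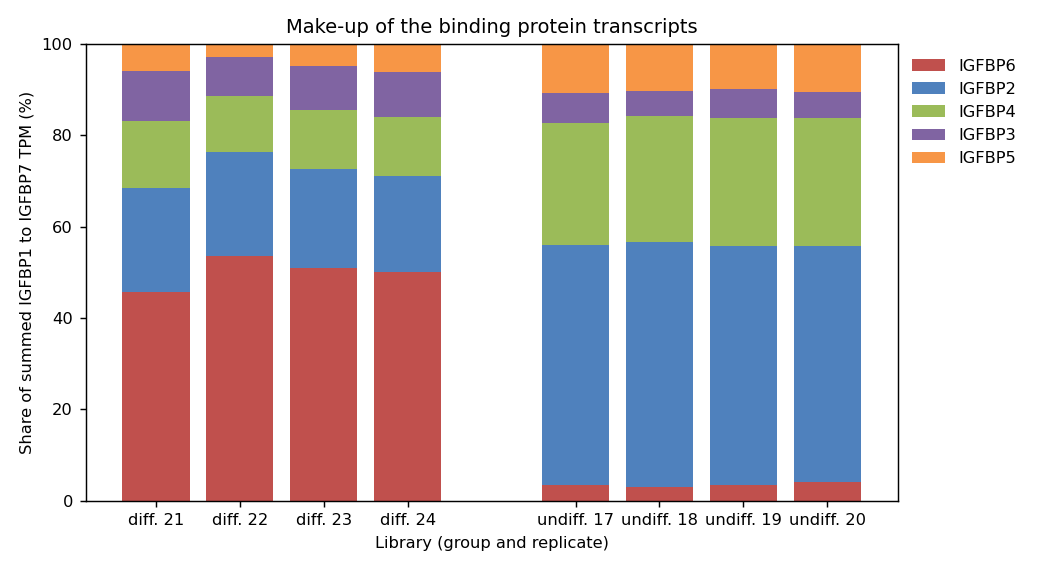
Stacked bars of each measurable binding protein's share of the summed IGFBP1 to IGFBP7 TPM (percent, from 0 to 100), 1 bar per library, differentiated replicates 21 to 24 left and undifferentiated replicates 17 to 20 right. IGFBP6 fills 45.6% to 53.6% of each differentiated bar and 3.13% to 4.07% of each undifferentiated bar, where IGFBP2 is the largest part.

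IGF2 (ENSG00000167244, chr11:2129112-2149603, minus strand), the fetal growth factor expressed from the paternal allele in most tissues, was at 15.6, 10.9, 12.9 and 12.3 TPM in differentiated replicates 21 to 24, against 58.6, 83.8, 72.2 and 75.65 TPM in undifferentiated replicates 17 to 20. All differentiated libraries were far below all undifferentiated ones, and replicate 17 was the lowest undifferentiated library. The means were 12.9 ± 1.99 TPM in differentiated cells and 72.6 ± 10.5 TPM in undifferentiated cells, a log2 difference of -2.40 ± 0.13 (SE), which ranked 42 by fall among the 17077 tested genes. The readthrough gene INS-IGF2, which shares sequence with IGF2, was listed at 0 in all libraries, so adding it changed nothing. IGF2-AS, on the other strand, was at 0.0521 to 0.144 TPM in differentiated libraries and 0.472 to 0.730 TPM in undifferentiated libraries. The library kit keeps strand, but whether the counting used it is not given in the sources used here.

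The start of the IGF2 transcripts did not separate the groups. IGF2-203, which starts at position 2137290, held 63.8% of the gene's TPM in differentiated cells and 60.1% in undifferentiated cells, with 79.4% in replicate 22. IGF2-204, which starts further upstream at 2138974, held 24.55% in differentiated cells and 30.5% in undifferentiated cells. IGF2-206, which starts close to IGF2-203, held 7.49% in differentiated cells and 5.26% in undifferentiated cells. Transcripts starting at or near the IGF2-203 start averaged 9.15 ± 1.24 TPM in differentiated cells and 47.4 ± 7.11 TPM in undifferentiated cells, and those with the upstream exon 3.70 ± 1.36 TPM in differentiated cells and 24.8 ± 3.45 TPM in undifferentiated cells. Both kinds were lower in every differentiated library.

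IGF1R (ENSG00000140443, chromosome 15), the signalling receptor, was at 26.9, 15, 20.9 and 26.1 TPM in differentiated replicates 21 to 24, against 17.6, 18.4, 17.6 and 17.95 TPM in undifferentiated replicates 17 to 20. Replicates 21, 23 and 24 were above all undifferentiated ones and replicate 22 was below them. The log2 difference was 0.26 ± 0.16 (SE) and was not called. Without replicate 22 it was 0.43 and was called, and likewise 0.43 and called when only protein-coding transcripts were summed. IGF1R-201 held 43.5% of the gene in differentiated cells and 43.4% in undifferentiated cells. IGF1R-206 starts 73 bases downstream and differs from it by 3 coding bases. It held 45.2% of the gene in differentiated cells, where replicate 22 reached 64.9%, and 34.8% in undifferentiated cells. The short transcripts IGF1R-205 and IGF1R-216, not annotated as coding, each overlapped between the groups. IGF1R-205 held 5.71% in differentiated cells and 11.5% in undifferentiated cells, and IGF1R-216 held 3.61% in differentiated cells and 6.63% in undifferentiated cells.

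IGF2R (ENSG00000197081, chr6:159969099-160113507, plus strand) was at 41.85, 33.7, 37.1 and 43.2 TPM in differentiated replicates 21 to 24, against 26.3, 27.65, 26.7 and 27.0 TPM in undifferentiated replicates 17 to 20. Every differentiated library was above the undifferentiated ones, and replicate 22 was again the lowest of its group for a receptor. The log2 difference was 0.51 ± 0.08 (SE). Relative to the median of all tested genes, the differences of the receptors were 0.42 for IGF2R and 0.17 for IGF1R. The main transcript IGF2R-201 held 75.3% in differentiated cells and 79.2% in undifferentiated cells, and IGF2R-203, a short transcript of 762 bases from the 3' part of the gene, held 23.0% in differentiated cells, with 36.5% in replicate 22, and 19.2% in undifferentiated cells.

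**Figure D3:**
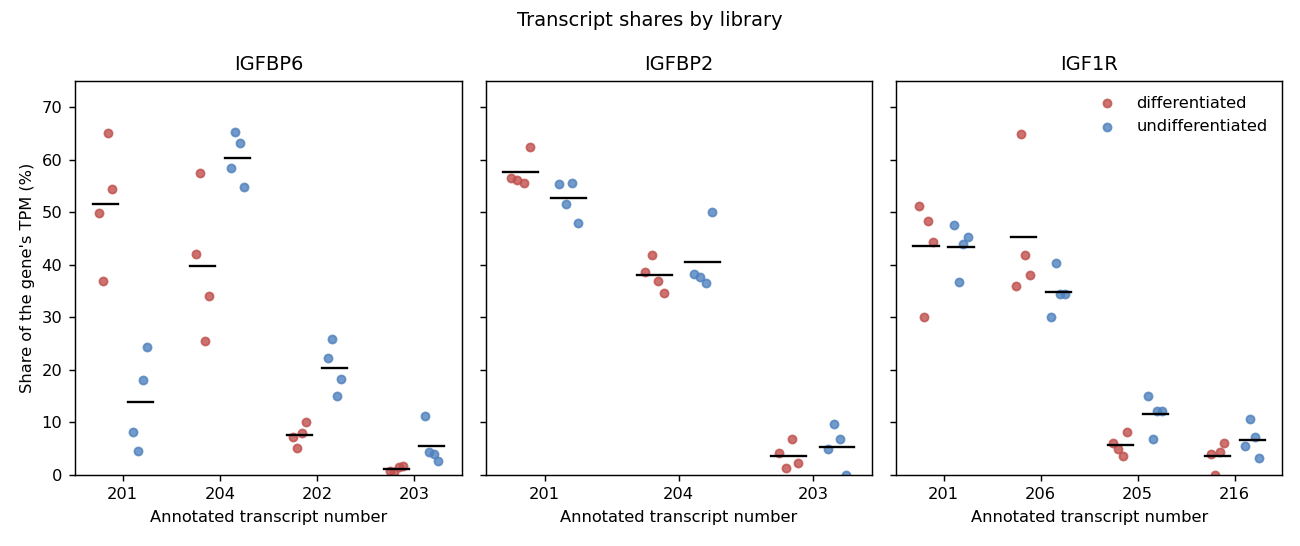
Share of the gene's TPM (percent) held by the annotated transcripts of IGFBP6, IGFBP2 and IGF1R, with 1 point per library and a bar at each group's mean, differentiated in red left of undifferentiated in blue. IGFBP6-201 separates the groups, IGFBP2-204 and IGF1R-201 do not, and the highest IGF1R-206 point (64.9%) is differentiated replicate 22.

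Binding protein transcripts exceeded IGF2 transcripts in both groups, by far more in differentiated cells. Summed binding protein TPM was 38.2 ± 11.7 times IGF2 TPM in differentiated cells and 1.72 ± 0.252 times in undifferentiated cells. IGF2 was 2.40 ± 0.631% of the TPM of the 10 genes in differentiated cells and 30.1 ± 2.93% in undifferentiated cells. The IGF2 to IGF2R ratio was 0.332 ± 0.0377 in differentiated cells and 2.69 ± 0.336 in undifferentiated cells. The IGF2R to IGF1R ratio was 1.81 ± 0.306 in differentiated cells and 1.504 ± 0.00989 in undifferentiated cells, without overlap but with a small gap. Its lowest differentiated value was 1.556 and its highest undifferentiated value 1.517, and the differentiated mean was raised by replicate 22, at 2.249. These are ratios of transcripts and say nothing of secreted protein.

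In order of level, differentiated cells had IGFBP6, IGFBP2, IGFBP4, IGFBP3, IGF2R, IGFBP5, IGF1R and IGF2, from 241 down to 12.9 TPM. In that order IGFBP5 and IGF1R overlapped over the libraries, as did IGF1R and IGF2, and the other neighbours were separate. Undifferentiated cells had IGF2, IGFBP2, IGFBP4, IGF2R, IGF1R, IGFBP5, IGFBP3 and IGFBP6, from 72.6 down to 4.33 TPM, and there the only overlapping neighbours were IGF2 and IGFBP2.

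Differentiated replicate 22 stood apart from the other 3 differentiated libraries, above them for the family genes with shorter main transcripts and below them for those with longer ones. On the log2 scale it was 0.55 above their mean for IGFBP6, 0.48 for IGFBP2, 0.28 for IGFBP4 and 0.14 for IGFBP3, whose main transcripts are 1169 to 2322 bases long. It was below their mean for IGF2R (-0.26), IGF2 (-0.29), IGFBP5 (-0.51) and IGF1R (-0.67), whose main transcripts are 4527 to 14044 bases long. Over all tested protein-coding genes the same difference had a median of -0.07 for main transcripts under 1 kb, so the shortest were not the highest, and of 0.07 for 1 to 2 kb, -0.13 for 2 to 5 kb, -0.36 for 5 to 10 kb and -0.49 for 10 kb and over. The part of this length pattern in the family's differences was not tested. Leaving replicate 22 out changed the call of IGF1R and of no other family gene.

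**Figure D4:**
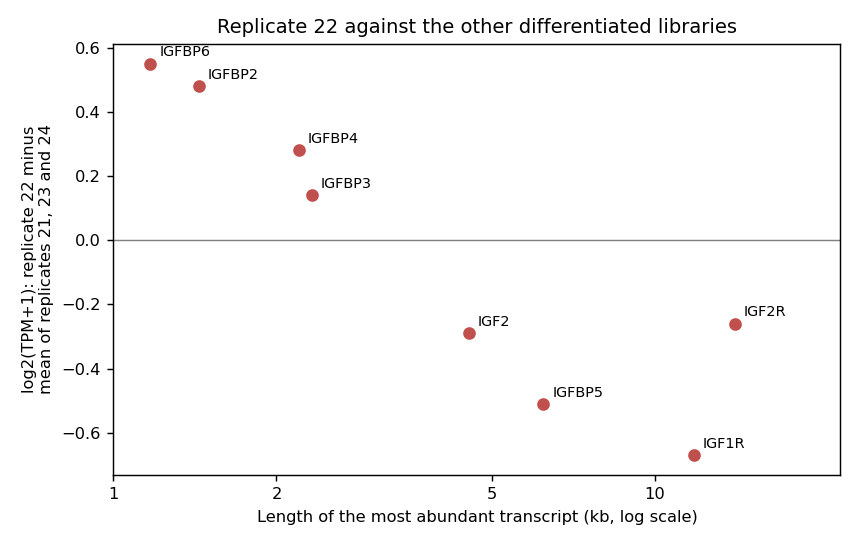
Difference in log2(TPM+1) between differentiated replicate 22 and the mean of differentiated replicates 21, 23 and 24 (vertical axis) against the length of the gene's most abundant transcript (kb, log axis), 1 point per family gene. The 4 genes with main transcripts up to 2322 bases lie above 0 and the 4 longer ones below it.

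The promoters were searched for the hexamer that retinoid receptors bind, since the cells were given a retinoid. Promoters from RefSeq (GRCh38.p14) were found for 7 of the 10 genes, in 9 windows of 250 bases before the start. The consensus AGGTCA was searched on both strands, and so were its variants: the form AGTTCA, the form GGGTCA and the form GGTTCA. Pairs of these in the same direction, 1, 2 or 5 bases apart, were counted as well. No matches overlapped each other. At least 1 hexamer was in 4 of the 9 windows, and in 33.8% of all 35116 promoters of that length. No searched window of the family held a pair, which 0.202% of all promoters did. The hexamers were 128 and 95 bases before the start of IGF2R, 224 before that of IGFBP3, 236 before that of IGFBP4 and 191 before an upstream start of IGFBP2. The IGFBP6 window ends at a start inside the gene's first exon (position 53097667), so all but 19 of its bases are annotated exon. The 250 bases before the IGFBP6-201 start (position 53097445) were thus largely not searched, and nothing is said of the IGFBP6 promoter. A match is a description of the letters and not a binding site. The 3 windows below (chr7:45921275-45921522 on the minus strand, chr17:40443200-40443449 on the plus strand and chr6:159968832-159969081 on the plus strand) are shown with the hexamers in capitals, written as TGACCC where the match is on the other strand:
IGFBP3: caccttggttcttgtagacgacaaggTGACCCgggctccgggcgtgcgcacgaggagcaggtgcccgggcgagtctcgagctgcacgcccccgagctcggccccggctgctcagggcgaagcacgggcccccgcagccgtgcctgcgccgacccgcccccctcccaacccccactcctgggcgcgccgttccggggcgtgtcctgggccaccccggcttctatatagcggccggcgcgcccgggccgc
IGFBP4: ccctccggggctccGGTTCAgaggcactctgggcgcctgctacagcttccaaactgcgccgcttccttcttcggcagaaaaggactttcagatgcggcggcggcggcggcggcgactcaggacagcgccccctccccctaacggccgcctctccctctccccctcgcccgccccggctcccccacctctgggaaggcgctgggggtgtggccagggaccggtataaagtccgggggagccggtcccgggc
IGF2R: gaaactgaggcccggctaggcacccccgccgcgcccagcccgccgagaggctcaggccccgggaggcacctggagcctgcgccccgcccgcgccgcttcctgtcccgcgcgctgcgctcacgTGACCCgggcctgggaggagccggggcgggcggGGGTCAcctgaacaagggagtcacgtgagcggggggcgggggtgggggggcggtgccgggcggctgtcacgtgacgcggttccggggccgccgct

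The rest of the pathway was described with 112 listed genes, of which 81 were tested in the same limma fit with Benjamini-Hochberg adjustment over all 17077 genes. The lists, like the family, were chosen with earlier results of these data known. Most genes named from them were picked for the size of their difference. Their p-values are therefore descriptive and are not independent tests. Of the 81, 31 rose, 13 fell and 37 did not pass, with 54.3% called beside 51.3% of all tested genes and a median log2 difference of 0.14 beside 0.10. The split depended on scaling: with median-of-ratios scaling 25 were higher and 24 lower, and with quantile normalization 26 and 27, since those scalings moved the median of all genes to -0.02 and -0.07. Over all genes the calls were 5791 higher and 2970 lower as deposited, 4553 and 4459 with median-of-ratios scaling and 4173 and 5098 with quantile normalization. The family's own 7 calls kept their direction and stayed called under every scaling.

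Among regulators and proteases of the binding proteins, 7 of the 9 tested genes rose and 2 fell, also under both other scalings. Over all tested genes, 33.9% were called higher and 17.4% lower. PAPPA, the metalloprotease PAPP-A that cuts IGFBP4 and so frees IGFs, rose, at 4.83, 2.27, 4.08 and 4.59 TPM in differentiated replicates 21 to 24 against 0.925, 0.927, 1.07 and 0.917 TPM in undifferentiated replicates 17 to 20 (log2 difference 1.3 ± 0.18 SE, limma adjusted p = 0.000477). STC2, stanniocalcin 2, an inhibitor of PAPP-A, fell, at 0.278, 0.0644, 0.214 and 0.349 TPM in differentiated libraries against 3.74, 4.57, 3.27 and 3.98 TPM in undifferentiated libraries (log2 difference -1.99 ± 0.13, limma adjusted p = 4.51e-06). PAPPA averaged 0.961 TPM in undifferentiated cells and STC2 0.226 TPM in differentiated cells. Each thus reached a mean of 1 TPM only through the group where it was higher, and both are in the counts of 7 and 2. The transcript of the protease was higher and that of its inhibitor lower in the libraries in which IGFBP4 was higher. A link between these differences was not tested. The related inhibitor STC1 was at 0 to 0.0109 TPM in differentiated cells and 0 to 0.0241 TPM in undifferentiated cells and was not tested. HTRA1, a secreted serine protease with an IGFBP domain that can cut binding proteins and is on both this list and the next, averaged 7.26 ± 1.24 TPM in differentiated cells and 1.12 ± 0.124 TPM in undifferentiated cells (limma adjusted p = 3.25e-06). ADAM9, a membrane metalloprotease, averaged 57.3 ± 3.49 TPM in differentiated cells and 22.2 ± 1.44 TPM in undifferentiated cells (log2 difference 1.33, limma adjusted p = 9.13e-07). ADAM12, a relative known to cut IGFBP3 and IGFBP5, went the other way, with 9.12 ± 2.78 TPM in differentiated cells and 23.6 ± 1.08 TPM in undifferentiated cells (log2 difference -1.33, limma adjusted p = 0.00069).

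Other genes with an IGFBP domain varied in direction, with 3 of 5 tested genes rising and 1 falling (80.0% called, beside 51.3% of all tested genes). CCN1, a matrix-associated signalling protein, rose to 25.01 ± 1.59 TPM in differentiated cells, against 2.43 ± 0.417 TPM in undifferentiated cells (log2 difference 2.93, limma adjusted p = 1.27e-07). KAZALD1 averaged 13.6 ± 0.632 TPM in differentiated cells and 4.99 ± 0.442 TPM in undifferentiated cells (log2 difference 1.29, limma adjusted p = 2.13e-06). IGFBPL1 fell to 45.7 ± 7.44 TPM in differentiated cells, against 161.9 ± 8.59 TPM in undifferentiated cells (log2 difference -1.82, limma adjusted p = 4.38e-06). Its undifferentiated level was above that of any of IGFBP1 to IGFBP7 in those cells.

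Among ligands and other receptors, 2 of 4 could be tested. INSRR, the insulin receptor-related receptor, rose to 39.2 ± 3.33 TPM in differentiated cells, against 6.46 ± 0.305 TPM in undifferentiated cells (log2 difference 2.43, limma adjusted p = 6e-08). INSR, the insulin receptor, was at 4.79 ± 0.710 TPM in differentiated cells and 3.85 ± 0.265 TPM in undifferentiated cells and did not pass (limma adjusted p = 0.0815). IGF1 was at most 0.0608 TPM in differentiated cells and 0.0771 TPM in undifferentiated cells, so of the 2 IGFs only IGF2 had a measurable transcript level, and INS was above 0 in 1 undifferentiated library alone.

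Receptor adaptors and feedback proteins gave 6 higher and 3 lower of 13 tested (69.2% called, beside 51.3% of all tested genes). Under both other scalings 5 were higher and 4 lower. SOCS3, a cytokine- and insulin-pathway suppressor, had the largest difference of the 13, at 39.5, 42.15, 46.7 and 46.85 TPM in differentiated replicates 21 to 24 against 3.38, 3.54, 3.32 and 3.10 TPM in undifferentiated replicates 17 to 20 (log2 difference 3.37 ± 0.07 SE, limma adjusted p = 1.52e-08). SOCS2, a suppressor of growth hormone and IGF1R signalling, rose by 0.91 on the log2 scale, and SHC1, an adaptor that links receptors to RAS, by 0.77. GRB14, an inhibitory adaptor of the insulin receptor, fell by 0.79. The docking proteins IRS1 and IRS2 fell by 0.51 and 0.21 (limma adjusted p = 0.0132 and 0.0158), and IRS4 was not tested. IRS1 averaged 0.770 TPM in differentiated cells and 1.53 TPM in undifferentiated cells, so it reached a mean of 1 TPM only through the undifferentiated libraries.

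The intracellular pathways had no shared direction. Of 27 tested genes of PI3K, AKT, mTOR and FOXO, 7 rose and 4 fell, and with median-of-ratios scaling 5 were higher and 9 lower. The share called was 40.7% for this list, 41.7% for RAS and MAPK and 28.6% for mannose-6-phosphate sorting, beside 51.3% of all tested genes. FOXO1, the transcription factor that AKT holds out of the nucleus, rose by 1.41 on the log2 scale and DEPTOR, an mTOR-binding inhibitor, by 0.87, while the PI3K regulatory subunit PIK3R3 fell by 1.17. The catalytic subunit PIK3CD was higher by 0.79, a call lost in lane 8 alone. FOXO1, DEPTOR and PIK3CD averaged 3.85, 2.16 and 2.22 TPM in differentiated cells and 0.808, 0.741 and 0.828 TPM in undifferentiated cells. These low-level genes reached a mean of 1 TPM only through the differentiated libraries. Of 12 RAS and MAPK genes, 4 rose and 1 fell, with 2 and 3 under both scalings, and the named ones (NRAS, SOS2, MAPK3 and ARAF) differed by 0.24 to 0.32. Of these, ARAF lost its call in 12 alternatives, MAPK3 under both scalings (limma adjusted p = 0.0702 and 0.0653) and SOS2 in lane 8 alone (limma adjusted p = 0.0707). In the sorting route that serves IGF2R, 2 of 7 genes rose: GNPTG, a subunit of the enzyme that adds the mannose-6-phosphate tag, by 0.53, and M6PR, the smaller mannose-6-phosphate receptor, by 0.35. The M6PR call was lost when only protein-coding transcripts were summed (0.21, limma adjusted p = 0.0995). IGF2BP3, the only one of 3 IGF2 mRNA-binding proteins tested, was not called, at 82.35 ± 11.8 TPM in differentiated cells and 94.1 ± 5.50 TPM in undifferentiated cells.

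**Figure D5:**
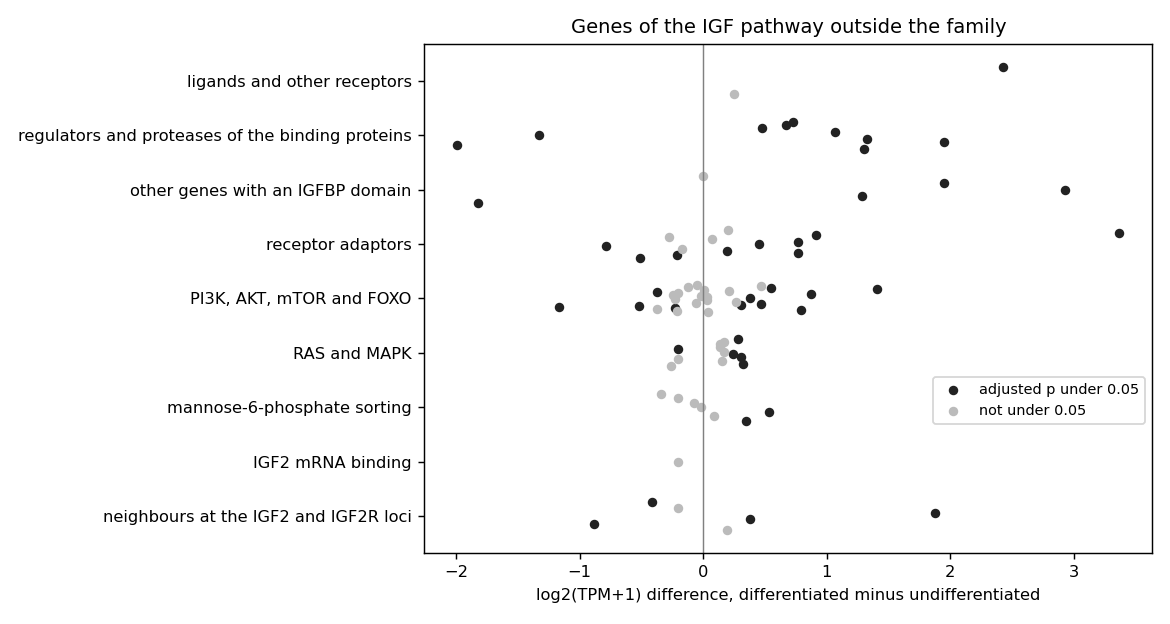
Difference in log2(TPM+1), differentiated minus undifferentiated, of the tested pathway genes outside the family, 1 point per gene on each row and 1 row per list (HTRA1 is on 2 rows). Black points have a limma adjusted p under 0.05 and grey points do not. The regulators and proteases of the binding proteins are all black, with 7 to the right of 0 and 2 to the left.

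At the imprinted region around IGF2, the neighbours differed in direction. H19, the maternally expressed RNA beside IGF2, averaged 9.79 ± 2.27 TPM in differentiated cells and 8.40 ± 1.20 TPM in undifferentiated cells (limma adjusted p = 0.343), with a direction that flipped under quantile normalization. CDKN1C, an imprinted cell cycle inhibitor, fell by 0.88 on the log2 scale and MRPL23, a mitochondrial ribosomal protein, by 0.41. SLC22A18, a transporter gene of the same region, rose to 13.6 ± 1.74 TPM in differentiated cells, against 2.93 ± 0.240 TPM in undifferentiated cells (limma adjusted p = 1.63e-06). Of the 6 tested neighbours at the IGF2 and IGF2R loci, 2 rose and 2 fell, or 1 and 3 under both scalings. That is 66.7% called as deposited, beside 51.3% of all tested genes.

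The genes nearest to IGFBP6 over the 8 libraries, by Euclidean distance of log2(TPM+1) centred on each gene's mean, were ODAM (distance 0.62), HAS2 (0.74), PLAT (0.76), TGM2 (0.76) and CCL2 (0.82). Replicate 22, the highest library for IGFBP6, was not the highest for any of these genes. The distance depends mostly on the size of the difference between the groups, which was 5.15 to 5.80 for these genes and 5.48 for IGFBP6. ODAM, for instance, averaged 47.2 TPM in differentiated cells and 0.299 TPM in undifferentiated cells, and CCL2 126.6 TPM in differentiated cells and 1.32 TPM in undifferentiated cells. For IGF2 the nearest genes were NELL1 (distance 0.32), DBH (0.33), SLITRK6 (0.48), RERG (0.50) and LMO4 (0.52). Their log2 differences were -2.57 to -2.17, beside -2.40 for IGF2. Shared regulation was not tested for either set. DBH, the enzyme that makes noradrenaline, averaged 43.6 ± 4.41 TPM in differentiated cells and 225.7 ± 14.8 TPM in undifferentiated cells.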

How the data were processed

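RNA from 4 libraries of differentiated and 4 of undifferentiated SH-SY5Y cells was sequenced, with groups from the cell type label. The authors deposited TPM for 194993 Ensembl transcripts, scaled to 1000000 per library. Salmon, FastQC 0.11.2 and GRCh37 are named, per the submitters' processing notes. Salmon's version, its annotation release and its use of strand are not stated in the labels or files used here. Transcripts were matched by identifier without version to GENCODE 29 (GRCh38), which also gave positions and structures: 180930 (92.8%) matched, with 93.2% to 95.0% of each library's TPM, and unmatched ones were not assigned. TPM were summed per gene. Genes averaging at least 1 TPM entered limma 3.58.1 (R 4.3.3, trended eBayes) on log2(TPM+1), two-sided, with a call at 0.05 after Benjamini-Hochberg adjustment. The limma fit was tested on simulated log values with known differences. Other steps ran in Python 3.11.15 (pandas 2.3.3, numpy 2.4.6). Transcripts with a mean share of 5% or more in either group entered the transcript description, plus IGFBP3-201, added after its values were seen. Named pathway genes were up to 4 called, non-overlapping genes per list with the largest differences, 10 fixed by name, and the 5 nearest genes to IGFBP6 and IGF2. IGF2-AS, INS-IGF2 and IGF2BP3 were named outside that rule after their values were seen. The members and lists were chosen with earlier results of these data known. Alternatives covered the pseudocount, low-value filter, scaling, lane, eBayes setting, protein-coding transcripts only and each library left out. Protein sequences were not analysed here.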

Additional observations from a re-analysis of the deposited data

Results flagged for a closer look

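Within the groups of 4, 144 sets of values were checked for a library set apart from the other 3 (Dixon's test, 95% level), and 5 were flagged. Chance alone flags about 1 set in 20. SHC1 was at 102.4 TPM in undifferentiated replicate 18, above 97.3 to 98.0 TPM in the other 3. PAPPA was at 1.074 TPM in undifferentiated replicate 19, above 0.917 to 0.927 TPM. IGFBP2-201 held 62.37% of its gene in differentiated replicate 24, above 55.65% to 56.5%. IGFBP2-204 held 50.03% in undifferentiated replicate 20, above 36.6% to 38.2%. IGFBP5-201 held 95.01% in the same library, below 98.6% to 99.0%. No cause of any of these was tested.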

How the results depend on the processing

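No paired analysis was possible because no replicate number occurs in both groups. The family's 7 calls kept their direction and their call under all alternatives tried, with log2 differences of 5.34 to 5.75 for IGFBP6, 2.33 to 2.70 for IGFBP3, 0.72 to 0.90 for IGFBP4, 0.59 to 0.90 for IGFBP5, 0.56 to 0.75 for IGFBP2, 0.37 to 0.58 for IGF2R and -2.55 to -2.33 for IGF2. IGF1R ranged from 0.09 to 0.43. Genes called lower over the whole table numbered 4459 with median-of-ratios scaling, 5098 with quantile normalization and 1914 in lane 8 alone, against 2970 as reported, and pathway genes called lower numbered 24 and 27 under the scalings, against 13. With 1 library left out, genes called lower ranged from 2533 to 3371 and pathway genes called lower from 11 to 18. With protein-coding transcripts only, undifferentiated binding protein shares moved to 4.90% for IGFBP3, 28.4% for IGFBP4 and 2.90% for IGFBP6. In the same setting undifferentiated transcript shares moved to 76.1% for IGFBP6-204, 55.4% for IGF1R-201 and 44.5% for IGF1R-206. Transcripts of other types are then left out of a gene's own sum as well as of the totals. Of 38 named genes, 8 changed their call or direction in some alternative. Quantile normalization reversed INSR to -0.01 and H19 to -0.05, and the cause was not tested. INSR was called without replicate 22 (0.32) and with protein-coding transcripts only (0.29). ARAF lost its call in 12 alternatives, MAPK3 under both scalings, PIK3CD and SOS2 in lane 8 alone, and M6PR with protein-coding transcripts only. Unknown depth limits what values near 0, such as those of IGFBP7 and IGF1, can show.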
